A study of Mus musculus with 12 samples.

Results

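Serpins are a family of proteins that share a fold, and most of them inhibit serine or cysteine proteases. An inhibitory serpin offers the protease an exposed strand, the reactive centre loop; when the protease cuts it, the loop folds into the body of the serpin and the enzyme is trapped in a covalent complex. The loop residue just before the cut, named P1, largely decides which protease is caught. In the heart and other injured tissue serpins are known for limiting plasminogen activation, thrombin and the granule proteases of leukocytes. A few members have lost inhibition and serve as hormone precursors, chaperones or signalling proteins.

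The 8 serpin genes described here were taken from the authors' deposited table of 3939 genes by a symbol starting with Serpin, with Serpinh1 left out. They belong to clade A (Serpina3n), clade B (Serpinb1a, Serpinb1c, Serpinb6a, Serpinb6b and Serpinb8), clade E (Serpine2) and clade F (Serpinf1). Of the protein coding serpin symbols in the mouse RefSeq annotation of GRCm38, 53 have no value analysed here. These include 23 of 24 genes of clade A, 23 of 28 of clade B, Serpine3, Serpinf2 and every gene of clades C, D, G and I. Older symbols that RefSeq records for serpins were looked for only where no gene now bears them, and none of these was found in the table.

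The table compares left ventricular myocardium, taken whole, of AngII/PE infused mice with that of NaCl infused mice. AngII/PE is the labels' abbreviation; in cardiac research it usually means angiotensin II, a vasoconstrictor hormone, with phenylephrine, an alpha-1 adrenergic agonist. Each infusion lasted 3 days, and all mice were wild-type hybrids of C57Bl6J and 129X1; their age is not given in the labels. The 12 RNA-seq libraries comprise 3 treated females, 3 treated males, 3 control females and 3 control males, which makes 6 treated and 6 control libraries. How the authors' comparison combined them is not stated in the sources used here. The labels do not say whether each library came from a separate mouse. Values per library were not analysed here. The depth, the spread between replicates and the response of each sex are therefore unknown, and every value below is the authors' own fold change or adjusted p with no error of its own.

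The DNA that codes for the loops is printed first, since the loop of an inhibitory serpin is the part that meets the protease. For 7 of the 8 genes the coding stretch was read from the GENCODE M21 transcripts (GRCm38, the same assembly as mm10). It runs from loop position P17 to position P5′, counted from the hinge glycine at P15. The loop of Serpinb1a was not read, because loops were read only for genes with a RefSeq promoter entry. Capitals mark the codons of P1 and P1′ by this count, the residues expected on either side of the cut. Known cut sites of each protein were not looked up.
Serpina3n: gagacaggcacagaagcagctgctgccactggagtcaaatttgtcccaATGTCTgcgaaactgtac
Serpinb1c: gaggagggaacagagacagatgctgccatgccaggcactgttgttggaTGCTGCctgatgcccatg
Serpinb6a: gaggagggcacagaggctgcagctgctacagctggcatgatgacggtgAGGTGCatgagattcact
Serpinb6b: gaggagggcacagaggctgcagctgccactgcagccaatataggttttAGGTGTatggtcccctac
Serpinb8: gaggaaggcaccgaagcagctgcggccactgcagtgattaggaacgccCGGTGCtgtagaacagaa
Serpine2: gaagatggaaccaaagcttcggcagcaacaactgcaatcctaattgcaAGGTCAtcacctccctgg
Serpinf1: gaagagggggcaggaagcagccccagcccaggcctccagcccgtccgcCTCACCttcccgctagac

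Of these 7 loops, 4 code for arginine at P1 (Serpinb6a, Serpinb6b, Serpinb8 and Serpine2), the residue that trypsin-like proteases such as thrombin and the plasminogen activators cut after. Serpina3n codes for methionine at P1 followed by serine. Serpinb1c codes for cysteine at both P1 and P1′. Serpinf1 has leucine at the P1 place, but its protein, pigment epithelium-derived factor, is known not to inhibit proteases. The hinge of the loop, which must slide into the serpin body for inhibition, is usually made of alanines from P12 to P9. All 4 of those positions code for alanine in Serpina3n, Serpinb6a, Serpinb6b and Serpinb8. Serpine2 has alanine at 3 of the 4 positions, Serpinb1c at 2 and Serpinf1 at 0. The printed stretch lies within the last coding exon in 6 of the 7 genes: chr12:104413442-104413507 on the plus strand for Serpina3n, and on chromosome 13 chr13:32881923-32881988 (minus) for Serpinb1c, chr13:33918134-33918199 (minus) for Serpinb6a and chr13:32978201-32978266 (plus) for Serpinb6b. That of Serpinb8 is chr1:107607167-107607232 (plus) and that of Serpinf1 chr11:75410230-75410295 (minus). In Serpine2 the stretch is split by an intron between exons 7 and 8 and spans chr1:79796875-79799498 (minus).

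All 8 serpin genes were higher in treated than in control myocardium in the authors' deposited table, where 56.2% of the 3939 listed genes were higher. Because only called genes are listed, all 8 had to pass the authors' threshold, and the count speaks for these 8 and not for the family. Their median log2 fold change was 1.56 (2.96-fold), beside 0.67 over all listed genes and 1.06 over the 2213 listed rises in the authors' deposited table. In the authors' deposited table the log2 fold changes ran from 0.74 for Serpinb8 to 5.96 for Serpinb1c. Of the 8 genes, 5 had a log2 fold change of at least 1, which 30.7% of all listed genes had, and 3 had one of at least 2, against 8.50% of all listed genes. All 8 genes are rises, whereas both shares are taken over rises and falls together. Of the 2213 listed rises, 1211 had a log2 fold change of at least 1 and 335 one of at least 2. No test was made of these shares, since the members were not drawn independently of the listing.

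**Figure D1:**
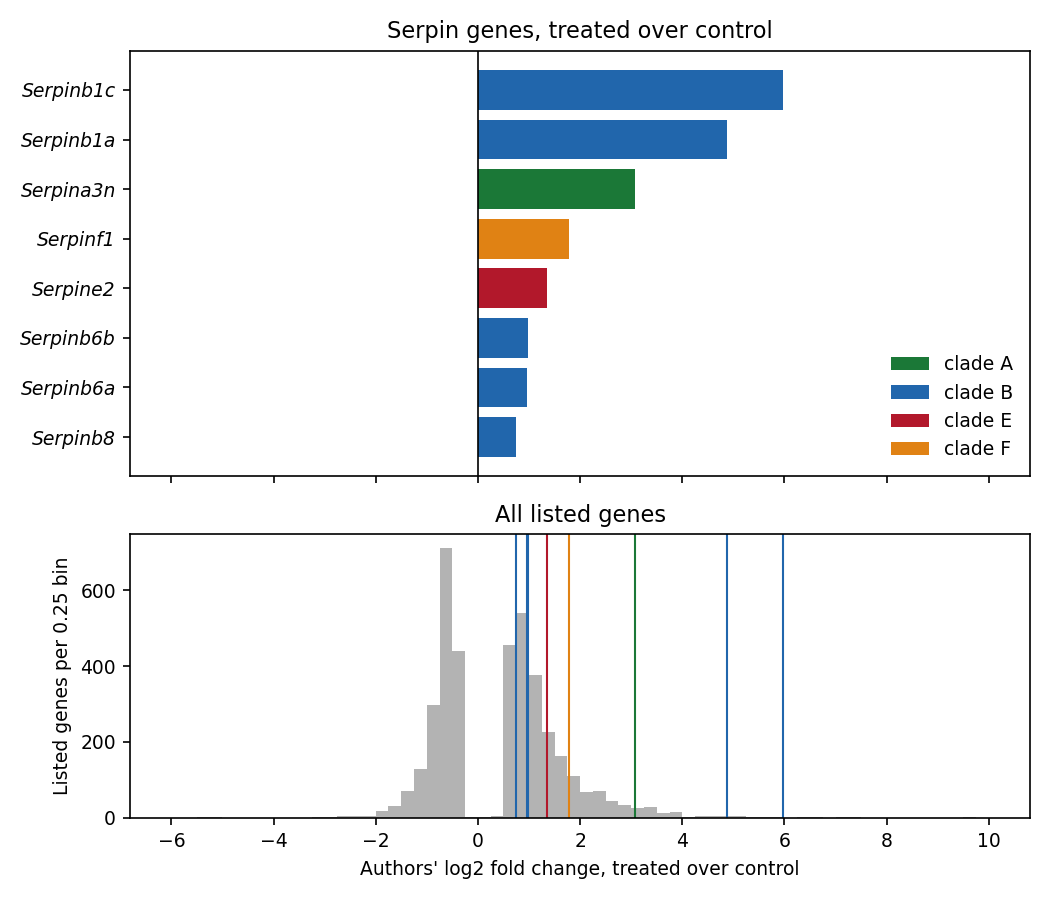
Top, bars give the authors' log2 fold change (treated over control) of each of the 8 serpin genes, coloured by clade. Bottom, the histogram counts all 3939 listed genes per bin of the same scale, with the 8 genes as coloured lines; Serpinb1c (5.96) and Serpinb1a (4.88) lie far out in the right tail and Serpinb8 (0.74) near its inner edge.

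The clade B serpins are mostly intracellular and are known for protecting cells from granule and lysosomal proteases. They gave the largest and the smallest values of the 8 genes. Serpinb1a is the mouse counterpart of human SERPINB1, an inhibitor of neutrophil elastase, cathepsin G and proteinase 3. In the authors' deposited table its log2 fold change was 4.88 (29.5-fold, adjusted p = 2.82e-236), which ranked 21 of 3939 when the genes were ordered by signed log2 fold change, highest first. Its close copy Serpinb1c ranked 8 in that order, at 5.96 (62.5-fold, adjusted p = 8.74e-24), per the authors' deposited table. Serpinb1c thus had the larger fold change of the pair and the far larger adjusted p: by adjusted p it ranked 1250, where Serpinb1a ranked 23.

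The other clade B genes rose by less than 2-fold. Serpinb6a, counterpart of human SERPINB6, an inhibitor of cathepsin G and trypsin-like enzymes, was at 0.97 (1.96-fold, adjusted p = 9.91e-66), per the authors' deposited table. Serpinb6b, a copy of the same subfamily, was at 0.99 (1.99-fold, adjusted p = 1.27e-24), per the authors' deposited table. Both carry arginine and cysteine codons at P1 and P1′, as printed above. Serpinb8, whose human counterpart inhibits furin and trypsin, was lowest of the 8 at 0.74 (1.67-fold, adjusted p = 0.00241), per the authors' deposited table. Its size exceeded that of 19.5% of the listed rises, and it was the only 1 of the 8 whose adjusted p was above 0.001.

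From clade E, whose members are known for inhibiting plasminogen activators and thrombin, came Serpine2. It encodes protease nexin-1, a cell surface bound inhibitor of thrombin and urokinase. Its log2 fold change was 1.34 (2.54-fold, adjusted p = 1.89e-41), per the authors' deposited table, and it ranked 738 of the 3939 genes by signed log2 fold change. Whether the values of the serpin genes differ from each other beyond error was not tested, since no standard errors were analysed.

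Clade A was represented by Serpina3n alone, a secreted mouse serpin known as an inhibitor of granzyme B and leukocyte elastase and as an acute phase gene. It was at 3.07 (8.39-fold, adjusted p = 2.31e-242), per the authors' deposited table, a size above that of 95.2% of the listed rises. From clade F came Serpinf1, which encodes pigment epithelium-derived factor, a secreted antiangiogenic protein without inhibitory activity. It was at 1.79 (3.45-fold, adjusted p = 3.60e-49), per the authors' deposited table. Outside the rule, Serpinh1, the collagen chaperone also known as Hsp47, was at 1.34 in the authors' deposited table. Agt, which encodes the angiotensin precursor and has a serpin fold, had no value analysed here. No value analysed here was found either for Serping1, the C1 inhibitor, Serpinc1, antithrombin, or Serpinb9, the granzyme B inhibitor.

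**Figure D2:**
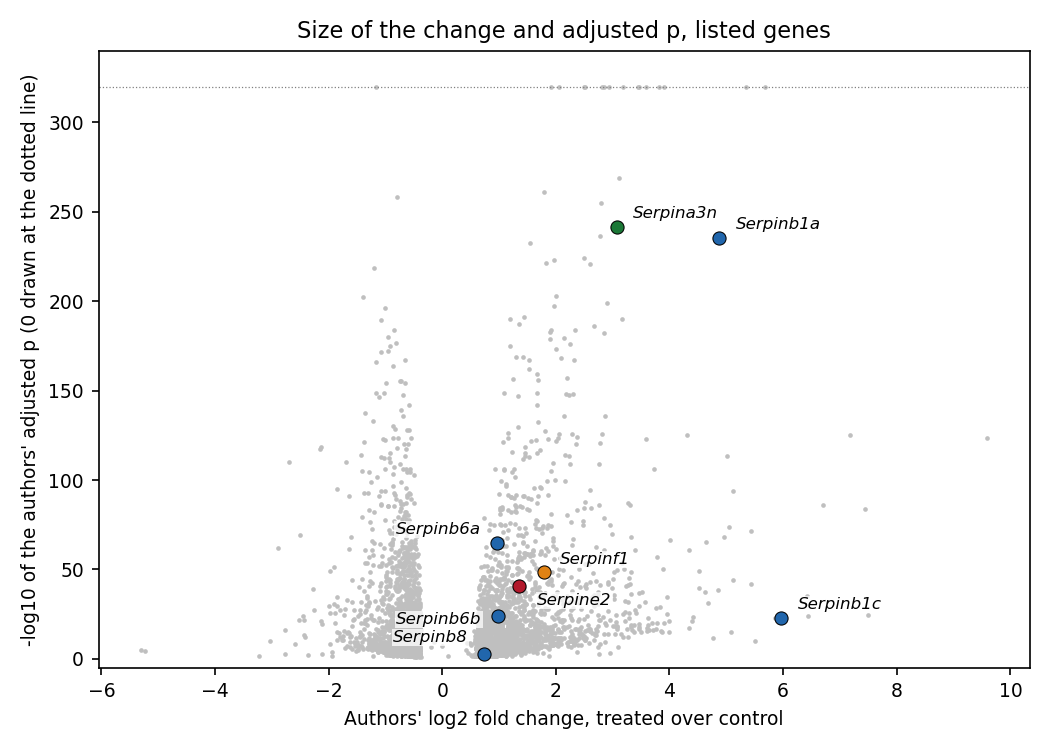
Each point is a listed gene, with the authors' log2 fold change (treated over control) on the x axis and -log10 of the authors' adjusted p on the y axis; serpin genes are coloured by clade as green (A), blue (B), red (E) and orange (F), and an adjusted p of 0 is drawn on the dotted line. Serpina3n and Serpinb1a combine a large fold change with a very small adjusted p, whereas Serpinb1c, at 5.96, lies low on the y axis.

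Ranks by signed log2 fold change and by adjusted p differed for several of the 8 genes. Of the 8 genes, 7 had adjusted p-values under 1e-20, as did 1400 of the 3939 listed genes. Serpinb6a, with a signed log2 fold change rank of 1270, had an adjusted p rank of 340. Levels per gene, which set the precision of a fold change together with the spread, were not analysed here.

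On chromosome 13, Serpinb1a, Serpinb1c, Serpinb6b and Serpinb6a share a stretch of 1161 kb that holds 16 protein coding serpin genes, of which the other 12 have no value analysed here. All 12 lie between Serpinb6b and Serpinb6a. The neighbours Serpinb1a (chr13:32842092-32851185, minus strand) and Serpinb1c (chr13:32881434-32898211, minus) start 39.3 kb apart by their lower coordinates, and their coding sequences were identical at 88.2% of aligned positions. Serpinb6b lies at chr13:32965209-32979067 on the plus strand and Serpinb6a at chr13:33917918-34002794 on the minus strand, and their coding sequences were 81.2% identical. The remaining members are scattered: Serpine2 at chr1:79794197-79861180 (minus), Serpinb8 at chr1:107590006-107610484 (plus), Serpinf1 at chr11:75409769-75422701 (minus) and Serpina3n at chr12:104406729-104414329 (plus). GENCODE M21 on GRCm38 annotates each of the 8 as protein coding.

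**Figure D3:**
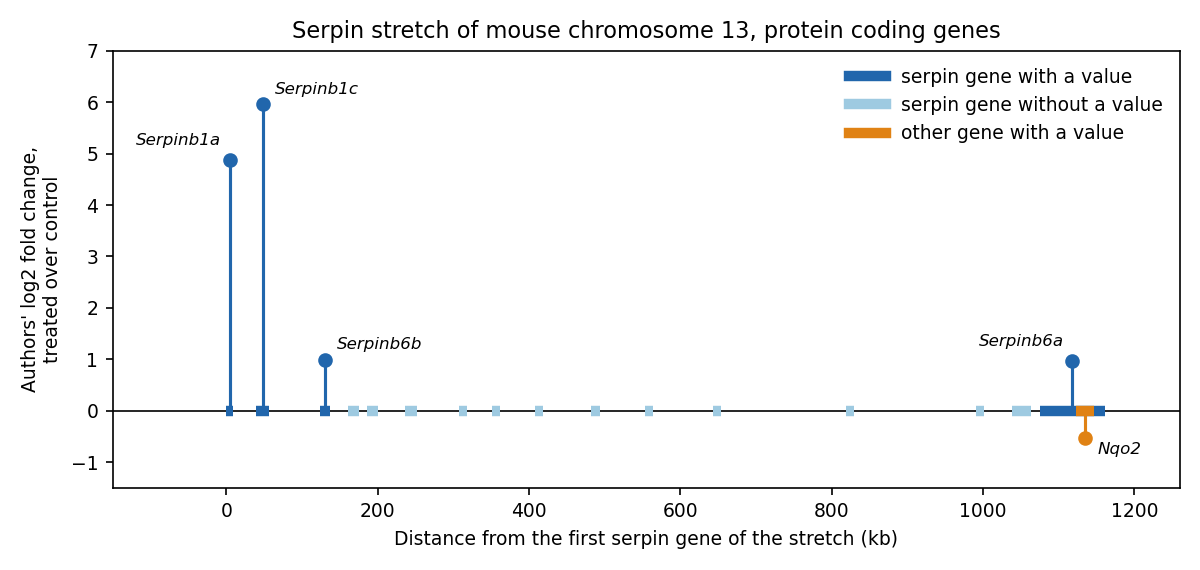
Bars on the zero line are the protein coding genes of the chromosome 13 serpin stretch, by distance in kb from its first serpin gene; stalks give the authors' log2 fold change (treated over control) of genes with a value. The tallest stalks, Serpinb1a (4.88) and Serpinb1c (5.96), stand side by side at the left end, and the genes without a value fill the middle.

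Close copies can share reads, and the sources used here do not give how the counting treated such reads. Of the stretches of 50 bases in the transcript of Serpinb1c, 6.63% also occur in transcripts of other genes, 2.90% in those of Serpinb1a. For Serpinb1a the share was 3.42%, for Serpina3n 6.90%, for Serpinb6b 3.12% and for Serpinb6a 2.96%. Serpinb8 shared 0.271% of its stretches, and Serpine2 and Serpinf1 shared 0%. Serpinb6a was the only member that overlaps other annotated genes, 3 in number and all on the opposite strand. One of them is Nqo2, which lies wholly inside it and had a log2 fold change of -0.53 in the authors' deposited table. The sources used here do not say whether counting used strand.

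Promoter sequences from RefSeq (GRCm38.p6), running from 250 bases before to 50 bases after the start, were found for 7 of the 8 genes. Serpinb1a had no entry. On either strand, TGANTCA (the AP-1 type motif) occurred in the window of Serpinb8 alone, where 7.81% of the 32851 windows of all genes hold it. Likewise TTCNNNGAA (the STAT type motif) occurred only in 1 of the 9 member windows, a window of Serpinb6a, against 8.30% of all windows. No member window held TTGCNNAA (a C/EBP type motif), found in 10.8% of all windows. The letters of these motifs were thus not shared among the members in these windows.

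The lists of proteases and related genes such as receptors were covered unevenly by the table. They hold whole groups of proteases, and whether serpins catch each one was not checked. For plasminogen activation and fibrinolysis, 5 of 14 genes had a value, 4 higher and 1 lower. The protease genes themselves, Plat, Plau and Plg, had no value analysed here. Anxa2 and S100a10, which together form a cell surface receptor for plasminogen, were at 1.67 and 1.02 in the authors' deposited table. Plaur, the urokinase receptor gene, was at 0.83 (adjusted p = 3.66e-04) in the authors' deposited table. Vtn encodes vitronectin, the plasma and matrix protein known as a ligand of the urokinase receptor, and it was lower, at -1.24 (adjusted p = 1.48e-61) in the authors' deposited table.

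Among coagulation and kinin genes, 4 of 23 had a value, 2 higher and 2 lower. None of the 4 encodes a protease, and the protease genes of this list had no value analysed here. The thrombin receptor gene F2r was at 1.31 and the related protease receptor gene F2rl1 at 1.84 in the authors' deposited table. Lower were F3, the tissue factor gene, at -0.52 and Tfpi, whose product inhibits the tissue factor pathway, at -0.62 in the authors' deposited table. Of 10 complement serine protease genes, Masp1 was at 2.26 and Cfd, the factor D gene, at -1.93 (adjusted p = 0.0178) in the authors' deposited table, and C1ra and C1s1 had no value analysed here.

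The granule serine proteases of leukocytes, the known targets of Serpinb1a, Serpinb6a and Serpina3n, had a value for 1 of 17 genes. This was Gzmm, at -0.92 in the authors' deposited table. Elane, Prtn3, Ctsg and Gzmb had none analysed here. Of the cysteine cathepsins and caspases, which some clade B and clade A serpins can also bind, 10 of 13 genes had a value and all 10 were higher, where 56.2% of all listed genes were higher. The share of all genes that the table lists is unknown, and the lists were not tested against each other. Ctss was at 2.37, Ctsk at 1.78, Ctsz at 1.35 and Ctsb at 1.15 in the authors' deposited table. Other secreted or membrane serine proteases had values for 5 of 18 genes, all higher. The matriptase gene St14 led them at 5.11 (adjusted p = 9.75e-45), before Prss23 at 1.85 and Hgf (a protease-like growth factor) at 1.64 in the authors' deposited table. Masp1 stands in both lists of serine proteases.

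**Figure D4:**
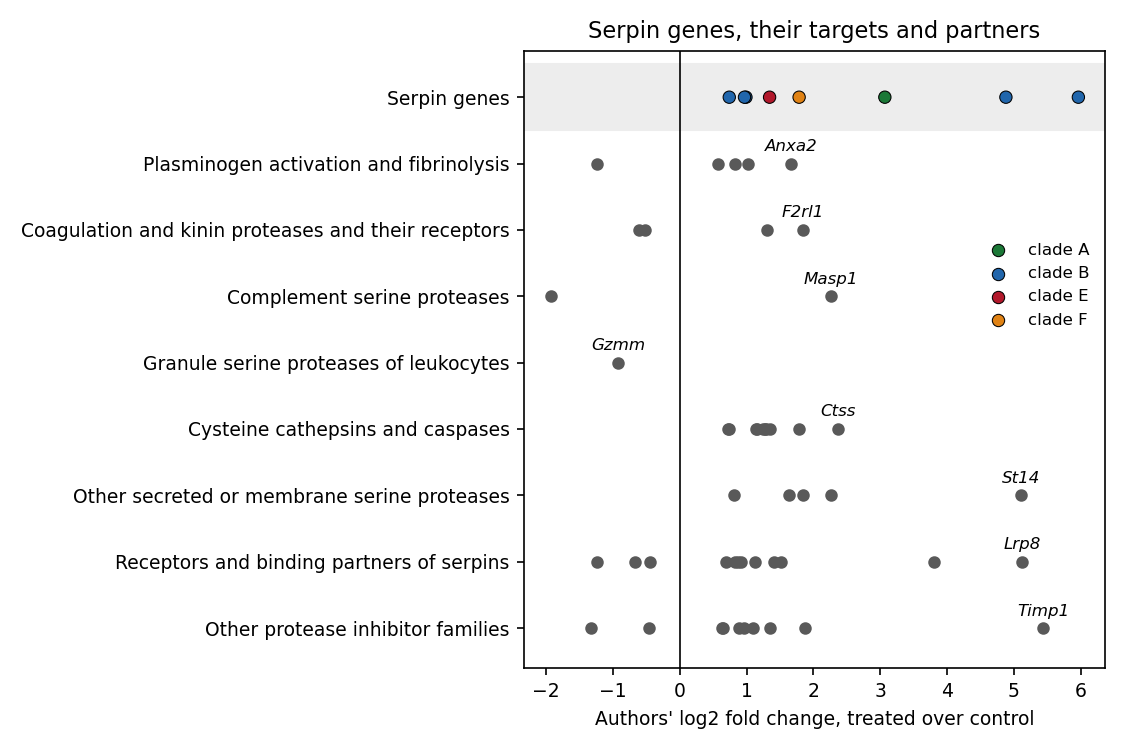
Points are genes with a value, at the authors' log2 fold change (treated over control). The top row holds the 8 serpin genes coloured by clade. The grey rows hold the listed members of target, receptor and inhibitor lists, with the member of largest absolute change named. The target lists are not limited to known serpin targets. They also hold related genes that are not proteases, and the listed genes of the plasminogen and coagulation rows encode none. The serpin row, the cathepsin and caspase row and the row of other serine proteases lie wholly right of 0. The plasminogen, coagulation, complement, receptor and inhibitor rows straddle it, and the granule protease row lies left of it.

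Receptors and binding partners of serpins had values for 12 of 18 genes, 9 higher and 3 lower. Lrp8, an apolipoprotein E receptor of the family that also clears serpin complexes, was at 5.12 (adjusted p = 2.13e-94) in the authors' deposited table. Lrp1, the main clearance receptor for serpin and protease complexes, was at 0.87 in the authors' deposited table, and Vldlr, a receptor of the same family, at -0.68. Of the matrix partners, Col1a1, whose collagen binds pigment epithelium-derived factor and is folded by Hsp47, was at 3.81 the heparan sulfate carrier gene Sdc1 at 1.52 and Itgb3, a subunit of a vitronectin receptor, at 1.41 in the authors' deposited table. Pnpla2, encoding a lipase that is also a receptor for pigment epithelium-derived factor, was at -0.44 in the authors' deposited table.

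Protease inhibitors outside the serpin fold had values for 10 of 33 genes, 8 higher and 2 lower, with a median log2 fold change of 0.93 beside 1.56 for the 8 serpins. The metalloproteinase inhibitor gene Timp1 was at 5.44, Wfdc17 at 1.88 and Pi16 at 1.35, and Timp4 at -1.33, in the authors' deposited table. Slpi and A2m, inhibitors of leukocyte elastase and of proteases in general, had no value analysed here. No test of the difference between the inhibitor lists was made.

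In whole tissue, fewer cells of a type and less RNA per cell cannot be told apart, nor can more cells and more RNA per cell. The macrophage markers had values for 10 of 10 genes, all higher, with a median log2 fold change of 1.69. Fibroblast and myofibroblast markers had 7 of 10, all higher, with a median of 3.17. Cardiomyocyte markers had 6 of 10 and endothelial markers 6 of 10, all of them lower, with medians of -0.98 and -0.55. Epicardial and mesothelial markers had 3 of 10, all higher. Among neutrophil markers 2 of 10 had a value, Lcn2 at 2.56 and Csf3r at 1.71 in the authors' deposited table, and among mast cell and platelet markers 1 of 10. None of 10 hepatocyte markers and none of 10 T and natural killer cell markers had a value analysed here. Summed marker levels could not be formed without values per library, and the part of these shifts in the serpin values was not tested.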

How the data were processed

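Whole left ventricular myocardium was measured by RNA-seq in 12 libraries, 6 treated and 6 control, grouped by the labels, which number no replicates. The submitters' processing notes name DESeq2, featureCounts, Subread, STAR 2.4.2a and cutadapt, and mouse build mm10; the sources used here do not give their roles and settings, nor the treatment of reads that match several genes. The authors deposited a table of their own comparison. Per the file headers it holds an average log2 fold change of treated against control, and a p-value adjusted for the false discovery rate; the highest is 0.0497, so called means under 0.05. The sources used here do not state what was averaged, the model, the number of genes tested or the levels behind each value. Depth and precision are therefore unknown.

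No test was run on these values. Members and lists were counted by direction and described by medians with pandas 2.3.3 under Python 3.11.15. The members and lists were chosen with earlier results of these data known. The rule named every member (1 gene is not reported here and is in no count of members), up to 4 listed genes of largest absolute change per other list, and a few set genes; Vldlr, Pnpla2, the gene overlapping Serpinb6a, and genes named as having no value, were added after values were seen. Masp1, Vtn and Col1a1 each stand in more than 1 list. Folds are 2 raised to the absolute log2 fold change. Coding sequences are the longest open reading frames of GENCODE M21 protein coding transcripts, aligned globally with Biopython 1.88. The counting, motif and loop searches were tested on simulated data. Alternatives were other thresholds on p and size, recentring, and other member sets.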

Additional observations from a re-analysis of the deposited data

How the results depend on the processing

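All 8 serpin genes were higher as deposited. By construction, none could become lower under the alternatives tried. These kept some or all of the rises, added the rise of Serpinh1, or subtracted 0.11 where the smallest value was 0.74. The count was 8 at an adjusted p under 0.01 and after recentring by 0.11 (the midpoint of the 5th percentile of rises and the 95th percentile of falls), 7 at an adjusted p under 0.001, 5 when changes under 1 in absolute log2 were dropped, and 9 with Serpinh1 added (Agt has no value). It was 3 without the members of tandem clusters of close copies (Serpina3n, Serpinb1a, Serpinb1c, Serpinb6a and Serpinb6b), by construction. Their median log2 fold change of 1.56 became 1.79 at an adjusted p under 0.001, 3.07 without changes under 1 in absolute log2, 1.45 after recentring, and 1.34 both without the tandem copies and with Serpinh1 added. Of all listed genes 56.2% were higher, 59.7% without predicted models, RIKEN clones and pseudogenes, and 81.5% without changes under 1 in absolute log2. No paired analysis was possible because values per library were not analysed here, and leaving out single libraries was not run for the same reason. Depth limits on these values are unknown.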

Other observations

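The table's column of gene descriptions gives 1 further gene a serpin name. Spi1, at a log2 fold change of 1.44 (adjusted p = 1.16e-29) in the authors' deposited table, is described there as a clade A proteinase inhibitor, whereas RefSeq gives that symbol to the gene also known as PU.1, a transcription factor of myeloid cells. A selection of serpins by description would have counted it. It was not counted here, because the members were taken by symbol.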
